A study of Saccharomyces cerevisiae with 8 samples.

Results

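Ty retrotransposon genes were chosen from the count table of an RNA-seq experiment in budding yeast by name and length, with earlier results of these data known. A row belonged to the group if its identifier was a systematic name ending in -A, -B, -C or -D and its length was at least 1300 bases. Of the 6120 rows of the table, 70 met this rule, and they were 35 gag rows and 35 gag-pol rows. By the annotated mobile element that holds each row, 48 belonged to Ty1, 18 to Ty2, 2 to Ty3 and 2 to Ty4. YDR170W-A and YLR035C-A lie in no annotated element and were placed in Ty1 because 78.4% and 97.8% of their 25-base words occur in annotated Ty1 elements.

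The experiment compared 4 haploid W303a-background strains with 2 libraries each, described by the submitters as independent replicates, from cells in mid-log growth at 30°C in synthetic complete medium. The *ubc9-6* strain has repeated copies of *ubc9-1* in tandem, with a *TRP1* marker, in place of *UBC9*, which lowers the activity of the only SUMO-conjugating enzyme, and it was set against W303a. The Tfg1-K60,61R-HA strain has an HA-tagged Tfg1, a subunit of the general transcription factor TFIIF, in which both lysines named in the allele are arginines, and it also carries an unintended asparagine-to-glutamine substitution in Tfg1. Its comparator is Tfg1-HA, which has the same tag and a *Kluyveromyces lactis TRP1* marker, and Tfg1-HA was in turn set against W303a, a *MATa* strain without tag or marker. In that last comparison the tag, the marker and any other difference between the strains cannot be told apart. In *ubc9-6* against W303a, lowered SUMO conjugation, the *TRP1* marker and any other difference cannot be told apart either.

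Ty elements are the LTR retrotransposons of yeast. An element is transcribed by RNA polymerase II from the long terminal repeat (LTR) at its 5′ end into an RNA that encodes Gag, the protein of the virus-like particle, and Pol, which contains protease, integrase and reverse transcriptase. Pol is made only as a Gag-Pol fusion, when ribosomes shift frame near the end of *gag*. Transcription of Ty1 is known to depend on Ste12, Tec1, Gcr1 and Gcn4, on the SAGA coactivator and on the Swi/Snf remodeling complex, and the *SPT* genes were first found as suppressors of Ty insertions. Ty1 and Ty2 insert near genes transcribed by RNA polymerase III, and Ty3 inserts at their start sites.

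The rows of the table reflect this gene structure. In the reference genome (sacCer3, the R64 assembly of the S288C strain), 34 gag-pol rows consist of a *gag* and a *pol* segment with 1 base skipped between them. All 21 such Ty1 rows and all 9 Ty2 rows have the letters CTTAGGC within 15 bases of the start of the *pol* segment, and both Ty3 rows have GCGAGTT there. The sites of the member with the most counts in each of these families are shown. In YNL054W-B and YBL101W-B, whose *gag* is also a row of its own, the site marks where the countable part of the row begins, whereas YIL082W-A overlaps no other row and is countable throughout. The letters in capitals are these 7-base frameshift sequences.

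YNL054W-B (Ty1, chrXIV:520747-520776, plus strand): acgaccttcatCTTAGGCcagaaacttact
YBL101W-B (Ty2, chrII:31214-31243, plus strand): acgaacttagtCTTAGGCcagcaacagaaa
YIL082W-A (Ty3, chrIX:206472-206501, plus strand): tgtagagcacgtaagGCGAGTTctaaccga

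Reads were counted only if they mapped to a single place and overlapped a single row. A gag row that lies inside a gag-pol row therefore shares every base but 1 with it and cannot collect reads. This applied to 33 of the 35 gag rows, 24 of Ty1 and 9 of Ty2, and all of them had 0 counts in all 8 libraries, which says nothing about the amount of *gag* RNA. The other gag rows, YDR170W-A and YLR256W-A, overlap no other row. The remaining 37 rows held 174662 counts in all, and the rest of this text concerns them.

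Ty copies are also nearly identical to each other, so that only scattered stretches of *pol* identify a copy. Among the 16 Ty1 members with a *pol* segment of 3963 bases, pairs were at least 93.3% identical, and the closest pair, YLR157C-B and YPL257W-B, differed at 1 base. Among 8 Ty2 members with 4020 bases of *pol*, identity was at least 98.2%, and YFL002W-A and YGR161W-B were the same in every base. YBL005W-B and YGR038C-B differed at 228 of 3963 bases. The 60 bases in which these Ty1 copies differ most are printed, with the 19 differing bases in capitals. These bases separate the copies shown from each other, but not from all other copies. YGR038C-B has no 100-base window that occurs once in the reference genome.

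YBL005W-B (chrII:224626-224685, plus strand): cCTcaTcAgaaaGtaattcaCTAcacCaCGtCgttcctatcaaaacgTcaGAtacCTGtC
YGR038C-B (chrVII:564112-564171, minus strand): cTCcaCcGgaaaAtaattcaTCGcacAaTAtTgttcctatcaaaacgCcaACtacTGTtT

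In the 37 countable rows, a median of 4.06% of 100-base windows that touch no other row occurred once in the reference genome. The medians were 2.80% in Ty1, 9.31% in Ty2, 55.5% in Ty3 and 2.39% in Ty4. The range within Ty1 reached 70.8% in YDR170W-A. Across the 37 rows, the number of unique windows and log10 of the counts had a Pearson correlation of 0.49 and a Spearman correlation of 0.62, a description across rows that share copies and libraries. For 8 rows no 100-base window was unique, and yet these rows held 12076 counts, among them 5505 in YGR038C-B and 4499 in YGR027W-B. At 150 bases 7 rows with 7577 counts had no unique window, and YGR027W-B was no longer among them. YGR038C-B had none at 300 bases either. The sequenced strain is W303a and not the reference strain, and the read length is not given in the sources used here, so counts in a row may derive from copies that stand elsewhere in W303a. A row is named below by its place in the reference genome for this reason.

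**Figure D1:**
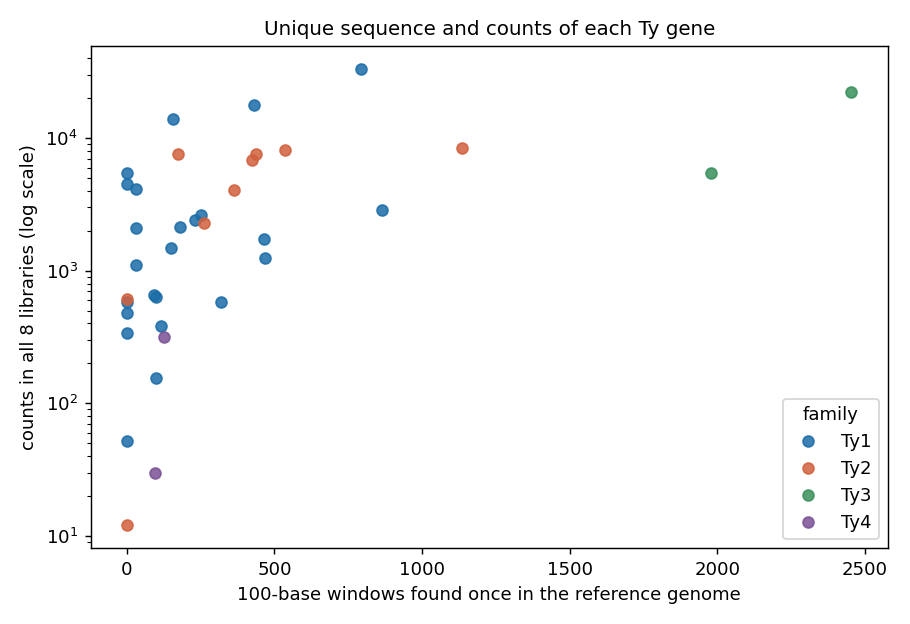
Each point is 1 of the 37 Ty rows that can collect reads; the horizontal axis gives its 100-base windows found once in the reference genome and the vertical axis, on a log scale, its counts in all 8 libraries. The 8 rows at the left edge have no unique window, and among them YGR038C-B has 5505 counts; the Ty3 row YIL082W-A, at the far right, has 2455 unique windows and 22451 counts.

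The libraries held between 26674458 and 34614232 counts in genes, and the Ty members took 0.0586% to 0.0829% of them. *UBC9*, the gene altered in *ubc9-6*, had 6003 and 6432 counts in the *ubc9-6* libraries and 1939 to 2872 counts in the other 6, and was higher in *ubc9-6* than in W303a by 2.49-fold (edgeR adjusted p = 1.29e-06). The 5 markers of mating type a summed to 1076 to 1523 CPM (counts per 1000000 after TMM scaling) in all libraries, while *STE3*, *MF(ALPHA)1* and *MF(ALPHA)2*, which mark the opposite mating type, had 0.414 to 5.95 CPM. A gene was called at an adjusted p under 0.05 in edgeR's quasi-likelihood test over all 5909 genes that passed the filter on low counts. Of the 70 members, 34 passed that filter, which were 23 of Ty1, 8 of Ty2, 2 of Ty3 and 1 of Ty4. The 3 rows with counts that did not pass were YPL257W-B with 52, YHL009W-B with 30 and YGR161W-B with 12 counts over all libraries.

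Summed over all members, Ty counts were highest in *ubc9-6*. The sums were 801 and 803 CPM in *ubc9-6*, 599 and 627 CPM in Tfg1-K60,61R-HA, 606 and 641 CPM in Tfg1-HA and 710 and 714 CPM in W303a. The *ubc9-6* and W303a libraries did not overlap, with 1.13 times the level in *ubc9-6*, and the Tfg1-HA libraries lay below those of W303a at 0.875 times. Tfg1-K60,61R-HA and Tfg1-HA overlapped, at a ratio of 0.984.

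The families did not move alike. For Ty1 the mean sums were 450.2 ± 4.01 CPM in *ubc9-6*, 395 ± 16.2 CPM in Tfg1-K60,61R-HA, 381 ± 24.9 CPM in Tfg1-HA and 364 ± 11.6 CPM in W303a (SD, n = 2 each). Only *ubc9-6* lay outside the range of its comparator, at 1.24 times W303a. For Ty2 the mean sums were 229 ± 5.05 CPM in *ubc9-6*, 122 ± 1.14 CPM in Tfg1-K60,61R-HA, 143 ± 3.19 CPM in Tfg1-HA and 222 ± 13.6 CPM in W303a. Here *ubc9-6* and W303a overlapped, both tagged strains were far below them, and Tfg1-HA stood at 0.642 times W303a. The Ty2 libraries of Tfg1-K60,61R-HA were also below those of Tfg1-HA, at 0.854 times. For Ty3 the sums were 122 ± 2.61 CPM in *ubc9-6*, 95.4 ± 4.32 CPM in Tfg1-K60,61R-HA, 98.3 ± 2.71 CPM in Tfg1-HA and 125 ± 0.344 CPM in W303a, again with the tagged strains lowest, at 0.789 times W303a for Tfg1-HA. Ty4 summed to 1.43 ± 0.186 CPM in *ubc9-6*, 1.24 ± 0.412 CPM in Tfg1-K60,61R-HA, 1.39 ± 0.331 CPM in Tfg1-HA and 1.41 ± 0.379 CPM in W303a. These sums were not tested, since with 2 libraries against 2 the smallest two-sided exact permutation p is 0.333.

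**Figure D2:**
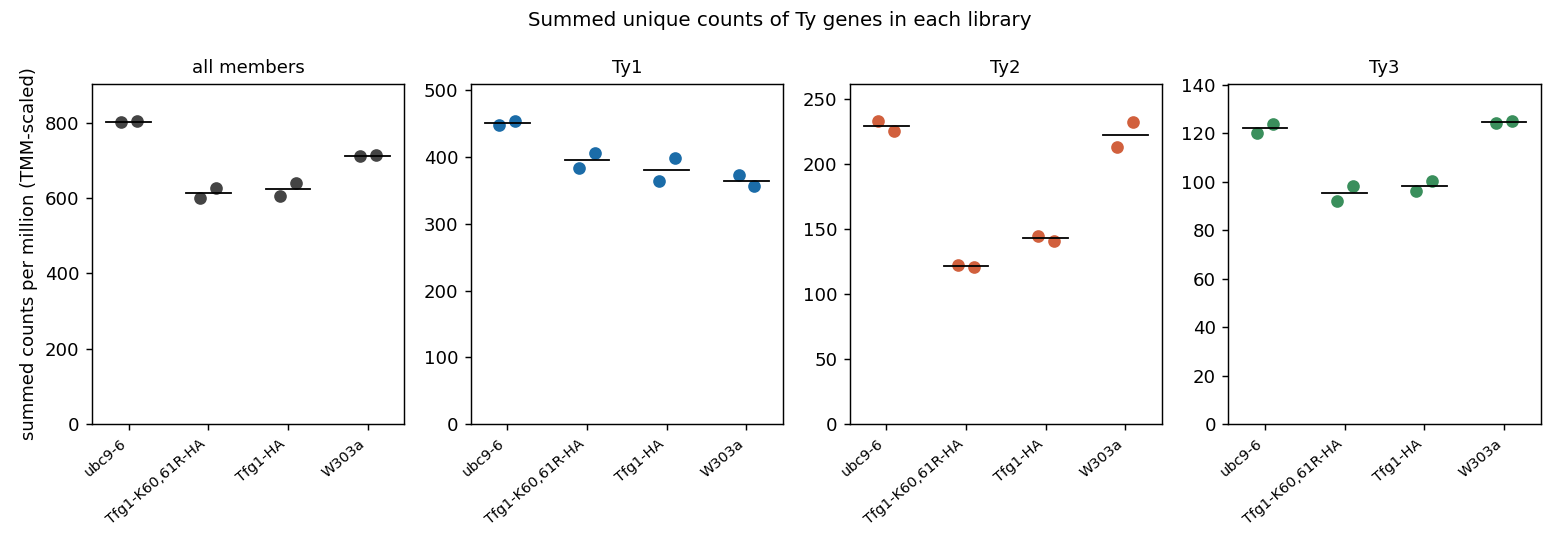
Summed CPM of all 70 Ty members and of the Ty1, Ty2 and Ty3 members, with 1 point per library and a line at the mean of each strain; all vertical axes start at 0. Ty1 is highest in ubc9-6 (447 and 453 CPM), and Ty2 and Ty3 are low in both HA-tagged Tfg1 strains.

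The sums rest on few rows. YNL054W-B alone held 19.1% of the members' counts, and the 4 members with the most counts (YNL054W-B, YIL082W-A, YBL005W-B and YHR214C-B) held 50.1%. A further 21 rows lie inside annotated Ty elements but were left out by the rule because their names have no suffix or they are shorter. They held 177450 counts, against 174662 in the members, of which 58825 were in YJR027W and 52214 in YJR029W. Their sums were 747 ± 40.3 CPM in *ubc9-6*, 702 ± 81.7 CPM in Tfg1-K60,61R-HA, 708 ± 42.1 CPM in Tfg1-HA and 635 ± 86.1 CPM in W303a. With these rows added, the ratio of Tfg1-HA to W303a over all Ty rows was 0.988 in place of 0.875, and that of *ubc9-6* to W303a was 1.15.

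In *ubc9-6* against W303a, strains that differ in SUMO conjugation and in the *TRP1* marker, 8 of the 34 tested members rose and 1 fell. Over all 5909 genes, 11.4% rose and 9.36% fell in this comparison. Of the 23 Ty1 rows, 7 rose, none fell and 16 were not called. A positive log2 fold change was seen in 20 of them, beside 2903 of 5909 genes. The median log2 fold change of the Ty1 rows was 0.39, beside -0.00 over all genes. Of the 8 Ty2 rows, 1 rose, 1 fell and 6 were not called, and neither Ty3 row was called. The 9 called changes were all smaller than 2-fold.

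YNL054W-B, the Ty1 member with the most counts (chrXIV:519456-524706), had 143 and 134 CPM in *ubc9-6*, against 101 and 115 CPM in W303a. Both *ubc9-6* libraries were above both W303a libraries, and the row rose 1.28-fold (log2 fold change 0.36 ± 0.08 SE, edgeR adjusted p = 0.0168). YBL005W-B (chrII:221330-226598), another Ty1 copy, had 68.9 and 64.6 CPM in *ubc9-6*, against 55.4 and 51.0 CPM in W303a. It rose by a log2 fold change of 0.33 ± 0.06 SE (edgeR adjusted p = 0.00946).

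The largest called increases were in Ty1 rows with lower counts. YPR158W-B (chrXVI:844709-849980) had 3.27 and 3.95 CPM in *ubc9-6*, against 2.29 and 2.24 CPM in W303a, a log2 fold change of 0.67 ± 0.19 SE (edgeR adjusted p = 0.0394). YPR158C-D (chrXVI:850989-856257), in the next Ty1 element on the opposite strand, had 12.2 and 10.3 CPM in *ubc9-6*, against 7.22 and 7.14 CPM in W303a, and rose by 0.65 ± 0.16 on the log2 scale (edgeR adjusted p = 0.0273). YLR035C-A (chrXII:215440-218907), a *gag-pol* row of a single segment outside any annotated element, had 2.87 and 2.89 CPM in *ubc9-6*, against 1.76 and 2.15 CPM in W303a (log2 fold change 0.55 ± 0.16 SE, edgeR adjusted p = 0.0469). YDR210W-D (chrIV:878659-883927) had 14.4 and 14.7 CPM in *ubc9-6*, against 8.67 and 11.6 CPM in W303a, and rose by 0.51 ± 0.13 (edgeR adjusted p = 0.0293). In each of these rows the libraries of the strains did not overlap. The rows were picked because they were called, so this adds no support to the calls.

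In Ty2, YDR034C-D (chrIV:514043-519356) had 42.1 and 40.4 CPM in *ubc9-6*, against 33.4 and 36.4 CPM in W303a, and was called as higher (log2 fold change 0.24 ± 0.07 SE, edgeR adjusted p = 0.0402). YLR410W-B (chrXII:941483-946796) was the single member that fell, with 18.3 and 20.4 CPM in *ubc9-6*, against 25.1 and 26.5 CPM in W303a (log2 fold change -0.41 ± 0.08 SE, edgeR adjusted p = 0.0117). The Ty2 member with the most counts, YBL101W-B (chrII:29935-35248), had 41.0 and 41.4 CPM in *ubc9-6*, against 40.9 and 43.5 CPM in W303a, with a 95% interval of -0.18 to 0.11 for the log2 fold change. Of the 9 calls, those of YPR158W-B, YDR034C-D and YLR035C-A were lost in DESeq2 (adjusted p = 0.112, 0.0781 and 0.229), and that of YLR035C-A also in the likelihood ratio test (adjusted p = 0.0552). The count rested on single libraries: most of the 9 calls were lost when either library of *ubc9-6* or of W303a was left out. Fewer genes were also called over the whole table in each of these settings.

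In Tfg1-HA against W303a, which measures what the tagged strain carries before any lysine is changed, 12 members fell and 3 rose. Over all genes 21.5% fell and 21.5% rose in this comparison. The decreases included 7 of 8 tested Ty2 members and both Ty3 members, while Ty1 was split, with 3 rows higher, 3 lower and 17 not called. The median log2 fold change of the tested members was -0.64 in Ty2, -0.32 in Ty3 and 0.16 in Ty1. YCL019W, a Ty2 row left out by the name rule, held 14418 counts, more than any Ty2 member. It had 56.8 ± 2.06 CPM in Tfg1-HA, against 60.8 ± 9.84 CPM in W303a (SD).

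Every tested Ty2 member had a negative log2 fold change, beside 2977 of 5909 genes. YLR410W-B had the lowest, with 10.4 and 10.1 CPM in Tfg1-HA, against 25.1 and 26.5 CPM in W303a (log2 fold change -1.34 ± 0.08 SE, edgeR adjusted p = 2.75e-05). YBL101W-B had 26.1 and 25.3 CPM in Tfg1-HA, against 40.9 and 43.5 CPM in W303a (log2 fold change -0.72 ± 0.06 SE, edgeR adjusted p = 0.000134). YDR210W-B (chrIV:872112-877425) had 7.83 and 6.82 CPM in Tfg1-HA, against 9.97 and 13.6 CPM in W303a, and fell by 0.69 on the log2 scale (SE 0.16, edgeR adjusted p = 0.00822). YDR261W-B (chrIV:981462-986775) had 22.3 and 22.0 CPM in Tfg1-HA, against 33.3 and 33.5 CPM in W303a, and fell by 0.59 (SE 0.08, edgeR adjusted p = 0.000628). In all 4 rows, which were picked as called rows, the libraries of the strains were fully apart, which adds no support to the calls. YDR034C-D, YOR192C-B and YOR343C-B fell by 0.57, 0.48 and 0.44 on the log2 scale, with adjusted p of 0.000463, 0.00101 and 0.00525. The remaining Ty2 row, YFL002W-A (chrVI:138204-143517), which has no unique window, had 1.65 and 1.39 CPM in Tfg1-HA, against 2.48 and 2.60 CPM in W303a, and was not called (log2 fold change -0.74 ± 0.47 SE, edgeR adjusted p = 0.229).

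The Ty3 rows have the most unique sequence among gag-pol members and therefore the values least affected by other copies. YIL082W-A (chrIX:205635-210132) had 78.2 and 79.7 CPM in Tfg1-HA, against 101.8 and 99.98 CPM in W303a, and fell by 0.35 on the log2 scale (SE 0.04, edgeR adjusted p = 0.000404). The same row had 96.7 and 98.7 CPM in *ubc9-6*, below both W303a libraries but not called (log2 fold change -0.05, 95% interval -0.14 to 0.05). YGR109W-B (chrVII:707610-712254) had 18.2 and 20.6 CPM in Tfg1-HA, against 22.7 and 24.9 CPM in W303a (log2 fold change -0.30 ± 0.10 SE, edgeR adjusted p = 0.0387). Its call was lost when libraries were scaled by total counts alone (adjusted p = 0.0706) and when any 1 of 5 libraries was left out, namely either of *ubc9-6*, either of W303a or replicate 1 of Tfg1-HA.

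Within Ty1, individual copies moved in opposite directions in Tfg1-HA. YBL005W-B had 73.1 and 80.2 CPM in Tfg1-HA, against 55.4 and 51.0 CPM in W303a, and rose (log2 fold change 0.53 ± 0.06 SE, edgeR adjusted p = 0.000368). YNL054W-B had 128 and 139 CPM in Tfg1-HA, against 101 and 115 CPM in W303a (log2 fold change 0.30 ± 0.08 SE, edgeR adjusted p = 0.0145). YBR012W-B (chrII:259869-265140) had 5.44 and 7.08 CPM in Tfg1-HA, against 3.324 and 3.04 CPM in W303a (log2 fold change 0.98 ± 0.22 SE, edgeR adjusted p = 0.0079). YNL284C-B (chrXIV:96964-102232) had 4.43 and 5.26 CPM in Tfg1-HA, against 11.2 and 7.14 CPM in W303a, and fell by 0.91 (SE 0.21, edgeR adjusted p = 0.00801), although its *pol* differs from that of YBL005W-B at only 46 bases. The calls of YBR012W-B and YDR210W-B were lost without replicate 2 of Tfg1-HA or replicate 2 of W303a, that of YNL054W-B without replicate 2 of Tfg1-HA or replicate 1 of W303a, that of YNL284C-B without replicate 1 of Tfg1-HA and that of YOR343C-B without replicate 2 of W303a.

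YHR214C-B and YDR170W-A, like YOR192C-B and YOR343C-B above, were picked for description after their values were seen. YHR214C-B (chrVIII:543964-549346), a Ty1 gag-pol row, had 39.8 and 44.9 CPM in Tfg1-HA, against 55.9 and 62.9 CPM in W303a (log2 fold change -0.49 ± 0.07 SE, edgeR adjusted p = 0.00103). In *ubc9-6* it had 72.2 and 72.6 CPM, against the same W303a libraries, and was higher (log2 fold change 0.28 ± 0.07 SE, edgeR adjusted p = 0.0262), a call that was lost without either *ubc9-6* library or without replicate 1 of W303a. YDR170W-A (chrIV:803195-804517), a gag row with 866 unique windows, had 9.78 and 9.38 CPM in Tfg1-HA, against 13.1 and 13.0 CPM in W303a (log2 fold change -0.45 ± 0.09 SE, edgeR adjusted p = 0.0044). The comparisons of *ubc9-6* and of Tfg1-HA share the W303a libraries and are not independent of each other.

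**Figure D3:**
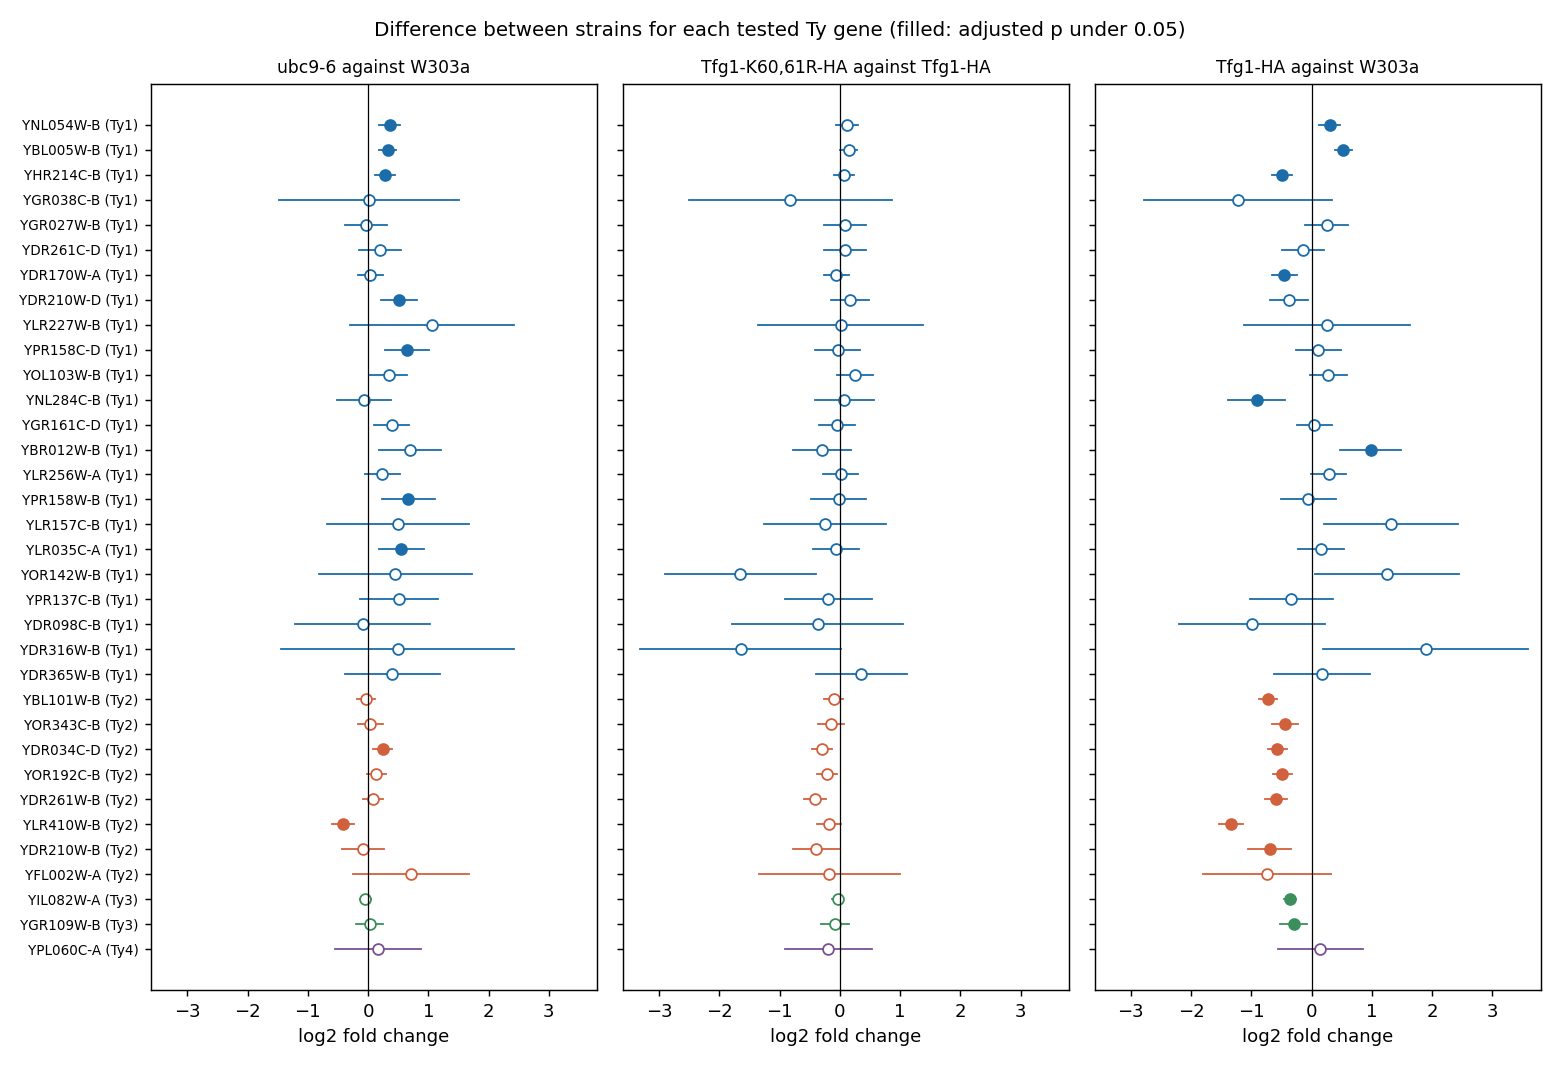
Log2 fold change of each of the 34 tested Ty rows with its 95% interval in 3 comparisons, grouped by family and ordered by counts within a family; filled points have an adjusted p under 0.05. In ubc9-6 most Ty1 points lie right of 0, and in Tfg1-HA all 8 Ty2 and both Ty3 points lie left of 0; no point is filled in Tfg1-K60,61R-HA against Tfg1-HA.

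The promoter of a Ty element is in its LTR, and LTRs do not sort by family. LTR starts were read from the reference genome and not from W303a. Over the first 200 bases of the 5′ LTR, all 9 Ty2 members were at least 98.5% identical to YDR034C-D. Of 21 Ty1 gag-pol members in annotated elements, 8 were also 98.5% to 99.5% identical to this Ty2 LTR, 6 were at least 99.0% identical to YBL005W-B, whose LTR start is 79.2% identical to that of YDR034C-D, and 7 were neither. The following stretches are shown because YNL054W-B, a Ty1 copy, carries a Ty2-type LTR start. In Tfg1-HA YNL054W-B rose and YDR034C-D fell. Capitals mark bases that have no identical partner in the alignment to YDR034C-D, which are 1 in YNL054W-B and 36 in YBL005W-B.

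YNL054W-B (Ty1, chrXIV:519163-519362, plus strand): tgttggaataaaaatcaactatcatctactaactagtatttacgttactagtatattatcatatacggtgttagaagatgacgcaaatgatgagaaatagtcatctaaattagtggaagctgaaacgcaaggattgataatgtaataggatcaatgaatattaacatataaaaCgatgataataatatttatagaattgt
YBL005W-B (Ty1, chrII:221037-221236, plus strand): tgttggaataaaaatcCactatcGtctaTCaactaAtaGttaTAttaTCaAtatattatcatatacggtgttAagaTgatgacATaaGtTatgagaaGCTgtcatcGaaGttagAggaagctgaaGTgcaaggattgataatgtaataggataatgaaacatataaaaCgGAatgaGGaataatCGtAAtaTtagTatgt
YDR034C-D (Ty2, chrIV:519448-519647, minus strand): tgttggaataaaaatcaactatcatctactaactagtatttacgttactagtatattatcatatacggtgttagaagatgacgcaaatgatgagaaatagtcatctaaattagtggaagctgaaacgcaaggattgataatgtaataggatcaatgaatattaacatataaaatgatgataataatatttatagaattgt

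In Tfg1-HA against W303a, of the 8 Ty1 rows with the Ty2-type LTR start 1 was higher and none was lower, whereas of the 8 tested Ty2 rows 7 were lower. Of the 6 Ty1 rows with an LTR start like that of YBL005W-B, 2 were higher and 2 were lower. In *ubc9-6* against W303a, 2 of 8 rows of the first kind, 2 of 6 of the second and 2 of the 6 tested rows of neither kind were higher, and none was lower. In Tfg1-HA, the only higher row with the YDR034C-D type of LTR start was YNL054W-B. A link between the LTR start and the change of a row was not tested. Known binding letters were searched on both strands in 1000 bases around the start codon, 300 before it and 700 after its first base. TGACTC, the core bound by Gcn4, was in 21 of 22 Ty1 gag-pol rows, 1 of 9 Ty2 rows and both Ty3 rows, and in 28.9% of all rows. CATTCT, one form of the Tec1 site, was in 21 of 22 Ty1 rows, 9 of 9 Ty2 rows and both Ty3 rows, and in 53.1% of all rows, and CATTCC, another form, was in 13 of 22, 6 of 9 and both, and in 35.8% of all rows. TGAAACA, bound by Ste12, was in 6 of 22 Ty1 rows and in no Ty2 or Ty3 row, and in 22.5% of all rows. Of the 2 Ty4 gag-pol rows, both held TGAAACA and CATTCC and neither held CATTCT or TGACTC. A match is a description and not a binding site.

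In Tfg1-K60,61R-HA against Tfg1-HA, whose Tfg1 differs by the lysine changes and the unintended substitution, edgeR called 0 of 34 members and 0.0% of all genes. These changes and any other difference between the strains cannot be told apart. At an unadjusted p under 0.05 there were 6 members and 572 of 5909 genes, the likelihood ratio test called 0 members and 3 genes, and DESeq2 called 0 members and 30 genes. All 8 Ty2 rows had a negative log2 fold change, between -0.42 and -0.10, beside 3023 of 5909 genes with a negative value. Of these Ty2 rows, 4 had an unadjusted p under 0.05. YDR261W-B had the lowest of these, with 17.9 and 15.2 CPM in Tfg1-K60,61R-HA, against 22.3 and 22.0 CPM in Tfg1-HA (log2 fold change -0.42, 95% interval -0.60 to -0.23, edgeR adjusted p = 0.42). YDR034C-D had 19.7 and 18.5 CPM in Tfg1-K60,61R-HA, against 24.2 and 22.8 CPM in Tfg1-HA (log2 fold change -0.30, 95% interval -0.47 to -0.14, edgeR adjusted p = 0.446). The libraries of the strains were apart in both rows, but neither passed the test over all genes. For the Ty1 and Ty3 members with the most counts the intervals included 0, at -0.06 to 0.30 for YNL054W-B and -0.13 to 0.06 for YIL082W-A. Without replicate 2 of Tfg1-K60,61R-HA, 2 members and 446 genes were called, and without replicate 1 of Tfg1-HA, 1 member and 3 genes.

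The change in *ubc9-6* relative to W303a minus that in Tfg1-K60,61R-HA relative to Tfg1-HA was called for 2 members, both of Ty2 and both with a higher value for *ubc9-6*, and for 6.08% of all genes. YDR034C-D differed by 0.54 ± 0.10 on the log2 scale (SE, edgeR adjusted p = 0.0198), given a log2 fold change of 0.24 for *ubc9-6* and -0.30 for Tfg1-K60,61R-HA. YDR261W-B differed by 0.50 ± 0.11 (SE, edgeR adjusted p = 0.0389), given 0.08 for *ubc9-6* and -0.42 for Tfg1-K60,61R-HA. Both calls were lost without replicate 1 of *ubc9-6*, replicate 2 of *ubc9-6*, replicate 1 of Tfg1-HA or replicate 1 of W303a, and that of YDR261W-B also without replicate 2 of Tfg1-HA or of W303a. Across all members 30 of 34 differences were positive, beside 2937 of 5909 genes. The median was 0.33, beside -0.00 over all genes. The members share copies and libraries, so this tally is a description.

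Taking the 4 strains at once, 21 of 34 members differed among them, beside 57.6% of all genes. These were 11 of 23 Ty1, all 8 Ty2 and both Ty3 rows. The plot of levels by library shows the Ty2 and Ty3 rows in the same order of strains, with *ubc9-6* and W303a above both HA-tagged strains, and Ty1 rows without a common order.

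**Figure D4:**
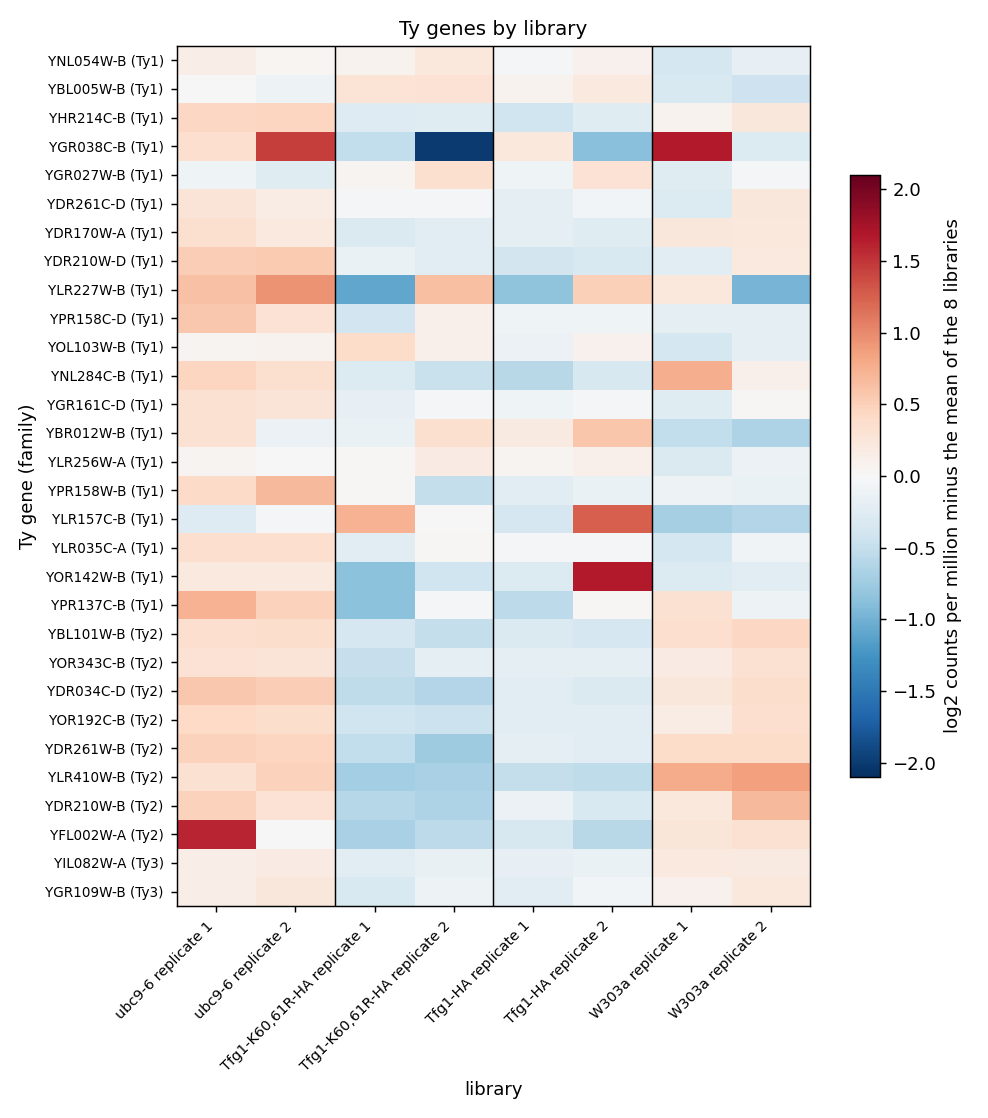
Log2 CPM of each Ty row with a mean of at least 50 counts in each of the 8 libraries, minus the mean of the row over the libraries (red above, blue below); rows are grouped by family and columns by strain. The Ty2 and Ty3 rows are blue in all 4 libraries of the HA-tagged Tfg1 strains, and YGR038C-B, YLR227W-B, YOR142W-B, YLR157C-B and YFL002W-A differ between replicates of a strain.

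Replicates of a strain disagreed in some Ty rows. Among the 30 members with a mean of at least 50 counts, 5 differed by more than 2-fold between the replicates of at least 1 strain, which is 16.7%, against 47 of 5698 genes with that mean, or 0.825%. The difference in these shares was not tested. YGR038C-B (chrVII:562199-567467) had 21.1 and 45.2 CPM in *ubc9-6*, 11.6 and 4.09 CPM in Tfg1-K60,61R-HA, 19.2 and 9.01 CPM in Tfg1-HA and 52.6 and 13.6 CPM in W303a. Its replicates were more than 2-fold apart in all 4 strains, so the strains overlapped widely and no comparison called it (95% interval of the log2 fold change -1.47 to 1.51 in *ubc9-6* against W303a). YLR227W-B (chrXII:593438-598706) had 12.9 and 16.1 CPM in *ubc9-6*, 3.95 and 13.0 CPM in Tfg1-K60,61R-HA, 4.67 and 11.9 CPM in Tfg1-HA and 9.82 and 4.25 CPM in W303a, and its log2 fold change of 1.06 in *ubc9-6*, the largest among members, was not called (edgeR adjusted p = 0.229).

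In the other 3 rows a single library stood apart. YOR142W-B (chrXV:595112-600380) had 6.06 CPM in replicate 2 of Tfg1-HA and 1.04 to 2.20 CPM in the other 7 libraries. YLR157C-B (chrXII:476333-481601) had 5.32 CPM in replicate 2 of Tfg1-HA and 1.38 to 3.67 CPM elsewhere. YFL002W-A had 6.30 CPM in replicate 1 of *ubc9-6* and 1.30 to 2.60 CPM elsewhere. Of these 5 rows, YGR038C-B, YOR142W-B and YFL002W-A have no unique 100-base window, YLR157C-B has 100 and YLR227W-B has 231. YDR316W-B, below that mean and also without a unique window, had 4.64 CPM in replicate 1 of Tfg1-HA and 0.649 to 1.19 CPM elsewhere. In YLR157C-B and YOR142W-B the library that stood apart carried the difference from W303a, which DESeq2 called (adjusted p = 0.00769 and 0.0197) and edgeR's quasi-likelihood test did not (adjusted p = 0.0557 and 0.0834).

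The Ty4 members had few counts, whereas the Ty4 rows YJL113W and YJL114W, left out by the name rule, had 2500 and 113 counts over all libraries, against 318 in YPL060C-A. YPL060C-A (chrXVI:437333-442742) had 1.47 and 1.21 CPM in *ubc9-6*, 0.885 and 1.45 CPM in Tfg1-K60,61R-HA, 1.06 and 1.56 CPM in Tfg1-HA and 0.955 and 1.39 CPM in W303a. The strains overlapped, and a difference was not detectable at this depth in any comparison, with a 95% interval of -0.54 to 0.88 for the log2 fold change in *ubc9-6* against W303a. Per kilobase of row, the mean over all libraries was 0.231 CPM for YPL060C-A, against 25.04 CPM for YNL054W-B and 19.7 CPM for YIL082W-A, values that also carry the share of unique sequence in each row.

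Host genes known to act on Ty elements were read from the same fit, in lists chosen with earlier results of these data known. Of 18 activators and coactivators of Ty transcription, none rose and 3 fell in *ubc9-6*, all of them SAGA subunits (*SPT20*, *NGG1* and *ADA2*, with log2 fold changes of -0.22, -0.15 and -0.24). In Tfg1-HA none rose and 5 fell. Among these, *MCM1*, a MADS-box factor of mating-type genes, fell by 0.36 on the log2 scale (SE 0.05, edgeR adjusted p = 0.000601), *SWI1* of the Swi/Snf complex by 0.26 and *NGG1* by 0.25. *STE12*, *TEC1* and *GCR1* were not called in either comparison. Of 9 *SPT* genes of chromatin and elongation, *SPT15*, which encodes TBP, fell in *ubc9-6* (log2 fold change -0.24 ± 0.04 SE, edgeR adjusted p = 0.00922), and *SPT2* and *SPT10* fell in Tfg1-HA by 0.16 and 0.23.

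Of 7 genes of the invasive growth and mating MAPK pathway, which acts through Ste12 and Tec1, none was called in *ubc9-6*, and 1 rose and 4 fell in Tfg1-HA. *KSS1*, the kinase of invasive growth, fell by 0.43 (SE 0.07, edgeR adjusted p = 0.00142), *DIG1*, an inhibitor of Ste12, by 0.26 and *STE20* by 0.19. Of 8 *RTT* genes, found as regulators of Ty1 transposition, 1 fell in *ubc9-6* (*RTT107*, by 0.20), and 1 rose and 2 fell in Tfg1-HA, where *RTT10* fell by 0.55 (SE 0.06, edgeR adjusted p = 0.000212), *RTT106* had a log2 fold change of 0.14 and *RTT107* fell by 0.20. Of 8 genes of RNA turnover and integration, *RPC40*, a polymerase subunit bound by the Ty1 integrase, and *LSM1* fell in *ubc9-6* by 0.23 and 0.16. In Tfg1-HA none of the 8 rose and 5 fell, with *BUD22* lower by a log2 fold change of -0.41, *RPC40* of -0.27 and *PAT1* of -0.15. No gene of these lists was called in Tfg1-K60,61R-HA against Tfg1-HA. The lists are short, and the shares called over all genes in these comparisons are given above.

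The genes next to the 40 Ty loci that hold members were examined because an element can lie in its neighbor's promoter. Loci and distances are those of the reference genome, and whether the elements stand there in W303a was not tested. Of 65 such genes at most 2000 bases away, 61 were tested. In *ubc9-6* 4 rose and 5 fell, and in Tfg1-HA 15 rose and 14 fell, with median log2 fold changes of -0.00 and -0.03. The shares called in either direction were 14.8% in *ubc9-6*, against 20.8% of all genes tested, and 47.5% in Tfg1-HA, against 43.0% of all genes tested. *POR1*, which encodes the mitochondrial porin and lies 318 bases from the element of YNL054W-B, had 666 and 701 CPM in *ubc9-6*, against 555 and 545 CPM in W303a (log2 fold change 0.31 ± 0.04 SE, edgeR adjusted p = 0.00236). In Tfg1-HA it had 1060 and 1018 CPM, against the same W303a libraries (log2 fold change 0.92 ± 0.04 SE, edgeR adjusted p = 6.47e-06). YNL054W-B was also higher in both strains, and since reads were counted without strand, any part of one transcript in the count of the other was not tested.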

How the data were processed

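PolyA RNA of 8 libraries (4 strains, 2 libraries each) was sequenced from directional libraries. Per the labels the submitters used HISAT2 2.1.0, featureCounts from Subread 2.0.0, edgeR 3.32.1 and build sacCer3. The deposited table holds raw counts per gene made by the authors without normalization, counted without strand, leaving out reads shared by copies or by overlapping rows. The authors also deposited 2 tables of their own comparisons (fold changes and p-values), which were not used.

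Members were found by name and length (1300 bases). Members and host gene lists were chosen with earlier results of these data known. Rows were matched to RefSeq annotation of R64 by coordinates, 64 under the same name and 6 under another. Library totals were 26674458 to 34614232 counts, and depth limits rows with few counts. Intervals and p-values cover the spread between these libraries.

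Counts were filtered with filterByExpr by strain, scaled with TMM and fitted over all 8 libraries in edgeR 4.0.16 (glmQLFit, glmQLFTest; R 4.3.3), with Benjamini-Hochberg adjustment over 5909 genes and calls under 0.05. The test of *ubc9-6* against W303a was also run on simulated counts with known changes. Alternatives were the likelihood ratio test, DESeq2 1.42.0, RLE factors, total counts, no filter, 10 counts in every library, a replicate block, only the 4 libraries compared and leaving out each library. Windows of 100 bases (also 50, 150 and 300) were compared with the whole R64 genome on both strands, and LTR starts were aligned with Biopython. Named members were, per comparison, the called rows with at most the 5 highest and 5 lowest fold changes and a mean of at least 50 counts, the row with the most counts per family, rows whose replicates differed over 2-fold, YGR038C-B, and all Ty3 and Ty4 rows. YHR214C-B, YDR170W-A, YOR343C-B and YOR192C-B were added after their values were seen, as were YDR316W-B and *POR1*. Host genes were named at most 3 per list and comparison by adjusted p.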

Additional observations from a re-analysis of the deposited data

Results flagged for a closer look

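The change in *ubc9-6* relative to W303a minus that in Tfg1-K60,61R-HA relative to Tfg1-HA passed edgeR's quasi-likelihood test in 2 Ty2 rows. These were 5.88% of the 34 tested members, beside 6.08% of all genes. The difference was 0.54 on the log2 scale in YDR034C-D and 0.50 in YDR261W-B, with adjusted p of 0.0198 and 0.0389. In YDR034C-D both *ubc9-6* libraries were above both W303a libraries and both Tfg1-K60,61R-HA libraries were below both Tfg1-HA libraries. YDR261W-B showed the same order, with 35.7 and 35.0 CPM in *ubc9-6*, 17.9 and 15.2 CPM in Tfg1-K60,61R-HA, 22.3 and 22.0 CPM in Tfg1-HA and 33.3 and 33.5 CPM in W303a. Neither effect of Tfg1-K60,61R-HA on its own passed the test. Both calls of the difference were lost when certain single libraries were left out, as listed above.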

How the results depend on the processing

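No called fold change of a named member changed sign under any alternative. Outside of left-out libraries, 8 calls of named members were lost and 13 were gained over all comparisons and alternatives. A further 754 values kept their side of the threshold, among them values that were not called in the main fit. Leaving out any library of *ubc9-6*, W303a or Tfg1-HA lost more calls of named members than any of these alternatives. With the replicate number as a block, 6 members and 1107 genes were called in *ubc9-6* against W303a, and 15 members and 2480 genes in Tfg1-HA against W303a. The same block gave 0 members and 0 genes in Tfg1-K60,61R-HA against Tfg1-HA, and 2 members and 253 genes for the difference of effects. In *ubc9-6* against W303a the calls lost with the block were those of YPR158W-B, YDR034C-D and YLR035C-A (edgeR adjusted p = 0.0574, 0.0548 and 0.0555). Deviations of same-numbered libraries correlated at -0.19 for *ubc9-6* and W303a, 0.02 for Tfg1-HA and W303a and 0.12 for Tfg1-K60,61R-HA and Tfg1-HA, so the numbers were not taken as pairs. With the *ubc9-6* numbers crossed, an alternative chosen after seeing the data, 9 members and 1282 genes were called in *ubc9-6* against W303a. With the 4 libraries compared alone, 13 members and 2090 genes were called there, against 9 and 1229 with all libraries.

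Leaving out 1 library gave 0 to 12 members called in *ubc9-6* against W303a, 11 to 17 in Tfg1-HA against W303a, 0 to 2 in Tfg1-K60,61R-HA against Tfg1-HA, 0 to 4 for the difference of effects and 17 to 24 for any difference. The cause was not tested.

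The ratio of summed counts in *ubc9-6* to W303a was 1.18 with total counts only, 1.10 without YNL054W-B, 1.12 without the 5 rows whose replicates were over 2-fold apart and 1.15 with the Ty rows left out by the name rule. For Ty1 alone it was 1.30 with total counts only. For Tfg1-HA to W303a it was 0.810 without YNL054W-B over all members, 0.988 with the rows left out by the rule, 0.967 for Ty1 without YNL054W-B, against 1.05 with it, and 0.704 for Ty2 with the rows left out by the rule. For Ty2 in Tfg1-K60,61R-HA to Tfg1-HA it was 0.829 with total counts only. The median share of unique windows was 1.57% at 50 bases, 6.56% at 150 and 17.5% at 300 bases, the last chosen after seeing the data. Low counts in rows with few unique windows limit what can be seen of single copies.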
